A study of Mus musculus with 4 samples.

Results

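Autophagy machinery genes were examined in suppressor cells of the granulocytic myeloid lineage (G-MDSC, granulocytic myeloid-derived suppressor cells) and in neutrophils. The members are 41 genes named by role, from the kinases that start autophagy to the receptors that bring cargo, and 39 of them had a probe set annotated with 1 gene symbol, out of 18193 genes with such a probe set on the array. Optn and Bnip3l had none and were not analysed here. For each gene the probe set with the highest mean log2(signal + 16) over the 4 arrays was used.

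Total RNA of 4 samples from female C57BL/6 mice was hybridised to Affymetrix Mouse 430 2.0 arrays. The 2 G-MDSC samples were spleen cells, described as CD11b+Ly6G+Ly6Clow and selected for Ly6G on microbeads, taken 3.5 weeks after EL4 lymphoma cells had been injected under the skin. The 2 neutrophil samples were lavaged from the peritoneum 3 h after the last of 2 injections of 12% casein (1.5 ml, 16 h apart), then depleted of F4/80-positive cells before selection on Ly6G. In both groups red cells were removed by lysis. Cell kind, tissue, tumour, casein and sorting steps changed together and cannot be told apart, and no label states whether both samples of a group were from different mice, so p-values measure the spread between these samples only, which may be technical.

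Autophagy wraps cytoplasm, organelles or protein aggregates in a double membrane and delivers them to the lysosome. A kinase complex built on ULK1 starts it, a lipid kinase complex marks the growth site, ATG9, ATG2 and WIPI proteins supply lipid, and ubiquitin-like conjugation attaches LC3 and GABARAP proteins to the membrane, where cargo receptors bind them. In the granulocyte lineage autophagy is known to take part in the differentiation of neutrophil precursors, and it is also used against engulfed microbes.

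The promoter windows below, from 250 bases before to 50 bases after a RefSeq transcription start on GRCm38.p6, belong to the 2 genes with the largest differences over all 4 arrays (Wipi1 and Ulk1), to Atg101, which rose and holds another motif, and to Atg3, a bright conjugation enzyme that did not pass the test and holds the TFEB-type E-box. They lie at chr5:110810032-110810331 (minus strand), chr11:109611340-109611639 (minus strand), chr15:101284051-101284350 (plus strand) and chr16:45158579-45158878 (plus strand), and each is written 5′ to 3′ on the strand of its gene. Capitals mark 3 motifs searched on both strands, the E-box CACGTG, which TFEB and its relatives bind, the GC box GGGCGG of SP family factors and the ETS family motif CCGGAAG.
Ulk1: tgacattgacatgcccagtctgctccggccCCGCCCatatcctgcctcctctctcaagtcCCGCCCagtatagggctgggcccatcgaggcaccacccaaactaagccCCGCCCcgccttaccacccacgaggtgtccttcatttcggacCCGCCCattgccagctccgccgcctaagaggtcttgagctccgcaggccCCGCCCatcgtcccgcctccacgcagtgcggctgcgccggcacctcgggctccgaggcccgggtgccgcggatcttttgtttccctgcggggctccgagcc
Wipi1: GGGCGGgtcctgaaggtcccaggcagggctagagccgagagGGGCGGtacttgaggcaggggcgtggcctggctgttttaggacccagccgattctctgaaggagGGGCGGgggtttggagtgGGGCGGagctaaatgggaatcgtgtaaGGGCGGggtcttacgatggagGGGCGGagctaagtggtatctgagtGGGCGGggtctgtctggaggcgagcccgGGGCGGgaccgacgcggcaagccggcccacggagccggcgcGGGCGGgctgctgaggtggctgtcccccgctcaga
Atg101: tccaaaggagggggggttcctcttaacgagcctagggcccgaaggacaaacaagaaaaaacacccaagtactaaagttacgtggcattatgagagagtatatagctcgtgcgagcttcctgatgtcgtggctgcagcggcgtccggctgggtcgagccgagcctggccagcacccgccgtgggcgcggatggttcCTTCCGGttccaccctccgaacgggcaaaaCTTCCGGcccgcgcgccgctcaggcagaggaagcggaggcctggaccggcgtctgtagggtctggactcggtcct
Atg3: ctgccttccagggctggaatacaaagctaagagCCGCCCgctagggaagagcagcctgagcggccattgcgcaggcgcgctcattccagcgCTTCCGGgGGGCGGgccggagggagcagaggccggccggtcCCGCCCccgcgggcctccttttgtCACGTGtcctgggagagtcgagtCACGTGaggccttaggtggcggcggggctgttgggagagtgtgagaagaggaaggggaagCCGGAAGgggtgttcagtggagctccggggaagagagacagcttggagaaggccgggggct
The Ulk1 window held 5 GC boxes and the Wipi1 window 9, without an E-box or ETS motif in either. The Atg101 window held 2 ETS motifs and neither of the others, and the Atg3 window held 2 E-boxes, 3 GC boxes and 2 ETS motifs. No matches overlapped in these windows. RefSeq windows were at hand for 32 of the 39 members and for 10600 tested genes. The E-box occurred in 4 of the 32 members (12.5%), Atg14, Atg3, Atg5 and Atg7, against 11.2% of tested genes and 7.15% of all 32851 windows. The only Atg7 window, chr6:114670846-114671145 (plus strand), lies inside the gene, whose first base is at 114643127. Among the 7 members with a window that rose, the E-box occurred in 0, the GC box in 5 and the ETS motif in 1. These 7 are too few to set against the shares of tested genes. The GC box occurred in 22 members (68.8%), against 64.1% of tested genes and 35.7% of all windows, and the ETS motif in 5 (15.6%), against 18.4% and 8.86%. These shares in the members lay close to those of the tested genes.

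Signals here are MAS5 intensities on a linear scale, and differences are log2 values, G-MDSC minus neutrophils, of signal + 16, a scale that understates changes of dim genes. Array medians were 75.8 and 80.7 in G-MDSC and 83.3 and 178 in the neutrophils. The dim end of neutrophils replicate 2 was raised, with its 40th percentile at 133, where the other 3 arrays had 45.7 to 52.6. All 39 members passed the filter on dim probe sets (above the 40th percentile of the array on at least 2 arrays), their mean signals ran from 111 (Atg10) to 21932 (Gabarap), and 2 of them, Atg2b and Atg10, lay below the percentile on neutrophils replicate 2. Between replicates of 1 group, the median gap of a member was 0.31 log2 units in G-MDSC and 0.42 in the neutrophils, against 0.31 and 0.58 over all tested genes. The neutrophil markers S100a8 and Csf3r, the G-CSF receptor, were bright on all 4 arrays. S100a8 was at 53178 and 61944 in G-MDSC and 58668 and 85891 in the neutrophils. Csf3r was at 19174 and 27611 in G-MDSC and 14881 and 15292 in the neutrophils. Of the 11 neutrophil markers tested, however, 4 were higher in G-MDSC by the test given below, and 0 were lower. Among these 4, Camp had 30456 and 30836 in G-MDSC, against 1277 and 600 in the neutrophils (a difference of 5.10). Ltf, Ngp and Cxcr2 differed by 4.38, 2.54 and 1.24.

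In G-MDSC some autophagy machinery genes were higher, while most did not pass the test. Of the 39 members, 11 rose (28.2%) and 28 were not called, with 0 lower, by limma with Benjamini-Hochberg adjustment over 13139 genes at a threshold of 0.05. Among those that rose were Wipi1 by 4.43-fold, Ulk1 by 4.4-fold and Nbr1 by 3.9-fold. Over all tested genes 8.3% were called higher and 8.05% lower. At an unadjusted p under 0.05, 19 members were higher (48.7%) and 1, Sqstm1, was lower (2.56%), beside 15.0% higher and 14.6% lower of all tested genes. The members' median difference was 0.65, against -0.18 over all tested genes, and 31 members lay above 0 and 8 below it. In 24 members (61.5%) both G-MDSC arrays were above both neutrophil arrays, against 27.3% of all tested genes, and in 3 (Gabarapl1, Sqstm1 and Atg4d) they were below, against 32.2% of all tested genes. The remaining 12 members overlapped between the groups. Members' median differences were 0.69 between the replicate 1 arrays and 0.82 between the replicate 2 arrays, where those of all genes were 0.00 and -0.33. Across the 39 members, measured on the same 4 arrays, Spearman's rho between mean level and difference was -0.0083.

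**Figure D1:**
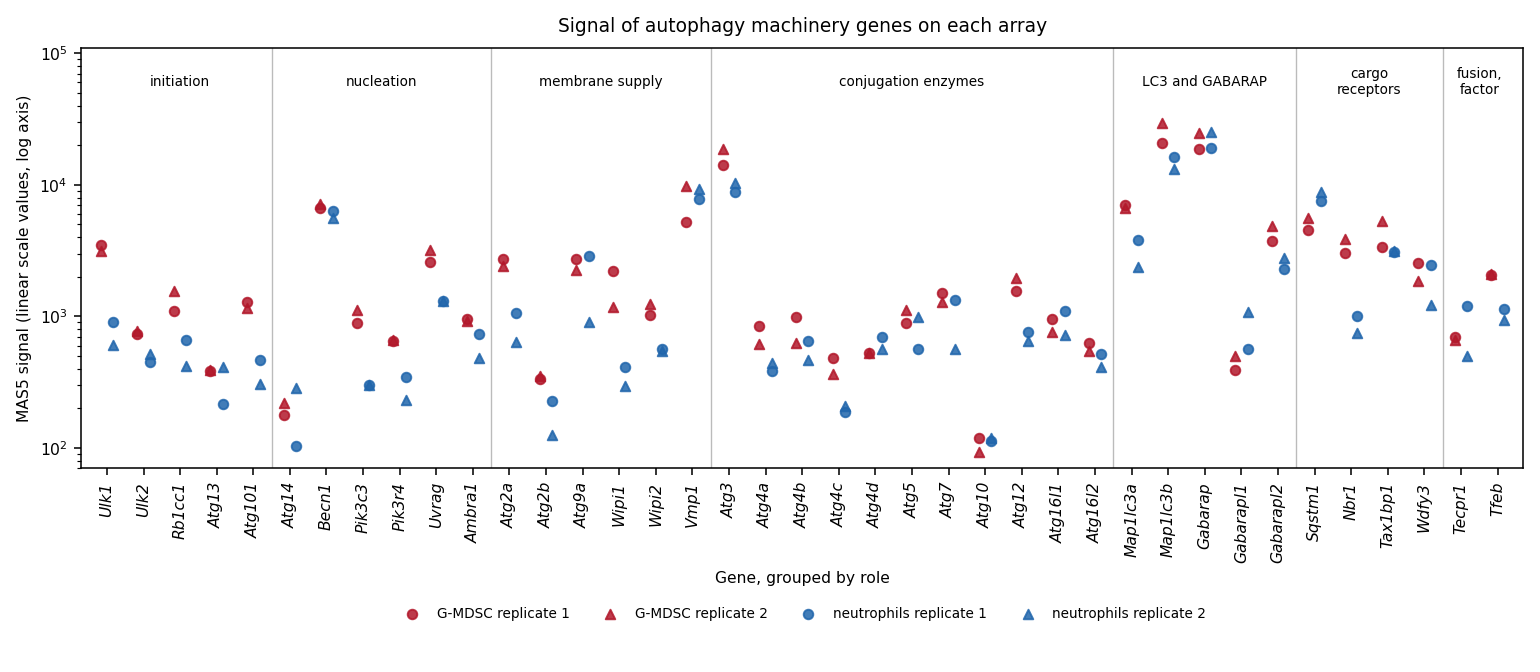
MAS5 signal (vertical log axis) of the 39 autophagy members, grouped by role from initiation at the left to fusion and transcription factor at the right, with G-MDSC in red left of neutrophils in blue and replicates 1 and 2 as circles and triangles. Both red points lie above both blue points in 24 genes and below them in 3 genes, and mean signals span 111 to 21932.

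**Figure D2:**
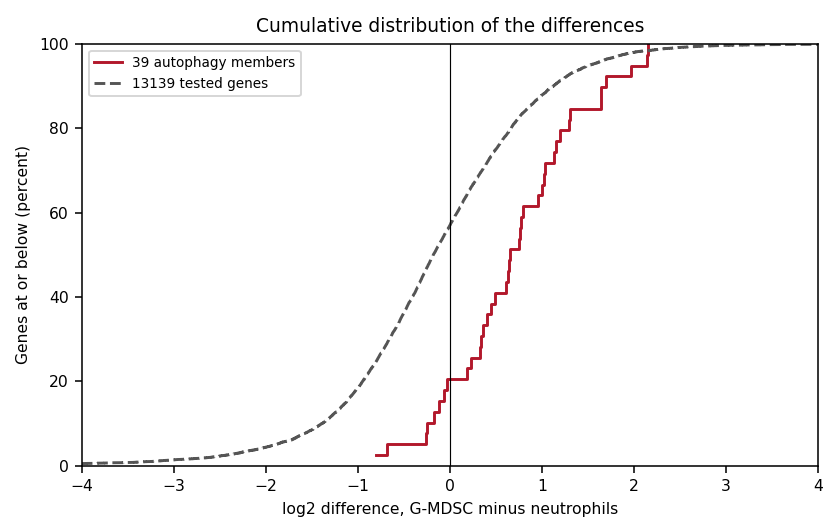
Cumulative share of genes (percent, vertical) at or below a log2 difference of G-MDSC minus neutrophils (horizontal), for the 39 members (solid red) and 13139 tested genes (dashed grey, with genes beyond the axis not drawn). The members' curve lies to the right near the middle, with a median of 0.65 against -0.18.

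The number of calls rested on how the spread was pooled and on single arrays. A fit with 1 array left out has a single array in that group, so its spread comes from the pair of the other group. Calls and p-values of these fits, here and below, do not reflect spread in the group left with 1 array. With a variance prior that ignored intensity, only Ulk1 among the members was called higher (adjusted p = 0.0484) and 0 lower, beside 1.13% higher and 2.52% lower of all genes. Without G-MDSC replicate 1 there were 3 members higher, Ulk1, Nbr1 and Pik3c3, and without G-MDSC replicate 2 there were 5, Ulk1, Nbr1, Wipi1, Atg101 and Atg2a, with 0 lower in both. Of all genes 3.27% and 3.89% were then called higher, and 4.37% and 4.27% lower. Dropping neutrophils replicate 1 gave 20 higher and 2 lower, Gabarapl1 and Sqstm1. Dropping neutrophils replicate 2, the array with the raised low end, gave 16 higher and 0 lower. Of all genes 18.4% and 13.0% were then called higher, and 26.4% and 11.1% lower. All 11 members called with 4 arrays stayed above 0 in each of the 14 alternatives run, and Ulk1 was called in all of them.

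The initiation complex had 3 of 5 members higher, Ulk1, Rb1cc1 and Atg101, with a median of 1.29. Counts by role, here and below, stand beside 8.3% higher and 8.05% lower of all tested genes, and roles were not tested as sets. Ulk1, the kinase that starts autophagosome formation, gave 3487 and 3141 in G-MDSC, against 902 and 608 in the neutrophils. It rose by 2.14 ± 0.32 log2 units (SE, n = 2 per group; limma adjusted p = 0.00139), or 4.4-fold, and its dimmer probe set differed by 2.05. The SE, here and below, is that of the limma fit, which draws the spread of a gene toward that of genes of similar brightness. The groups did not overlap in Ulk1, and the 2 G-MDSC arrays lay close together. Atg101, which stabilises ATG13 in the complex, had 1290 and 1152 in G-MDSC, against 469 and 308 in the neutrophils (1.64 ± 0.34; adjusted p = 0.00796). This call was lost without G-MDSC replicate 1 (adjusted p = 0.0989). Rb1cc1, the scaffold FIP200, had 1105 and 1548 in G-MDSC, against 658 and 416 in the neutrophils (1.29 ± 0.35; adjusted p = 0.0291). Rb1cc1 was the weaker case: the mean of its 3 probe sets differed by 0.62 (adjusted p = 0.255), quantile normalization left it uncalled (adjusted p = 0.0736), and the call went when either G-MDSC array was dropped (adjusted p = 0.0815 leaving out replicate 1 and 0.343 leaving out replicate 2). The ULK1 paralogue Ulk2 had 734 and 770 in G-MDSC and 447 and 515 in the neutrophils, separate but not past the threshold (0.63 ± 0.33; adjusted p = 0.225). A second Ulk2 probe set of nearly the same brightness had 908 and 878 in G-MDSC, against 377 and 325 in the neutrophils (1.31 ± 0.33), and passed the threshold when all kept probe sets were fitted by limma (adjusted p = 0.0318). Atg13, the regulatory subunit, had 382 and 393 in G-MDSC and 217 and 413 in the neutrophils, with overlapping groups (0.35 ± 0.40). Whether the difference of Ulk1 exceeds that of Ulk2 was not tested.

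**Figure D3:**
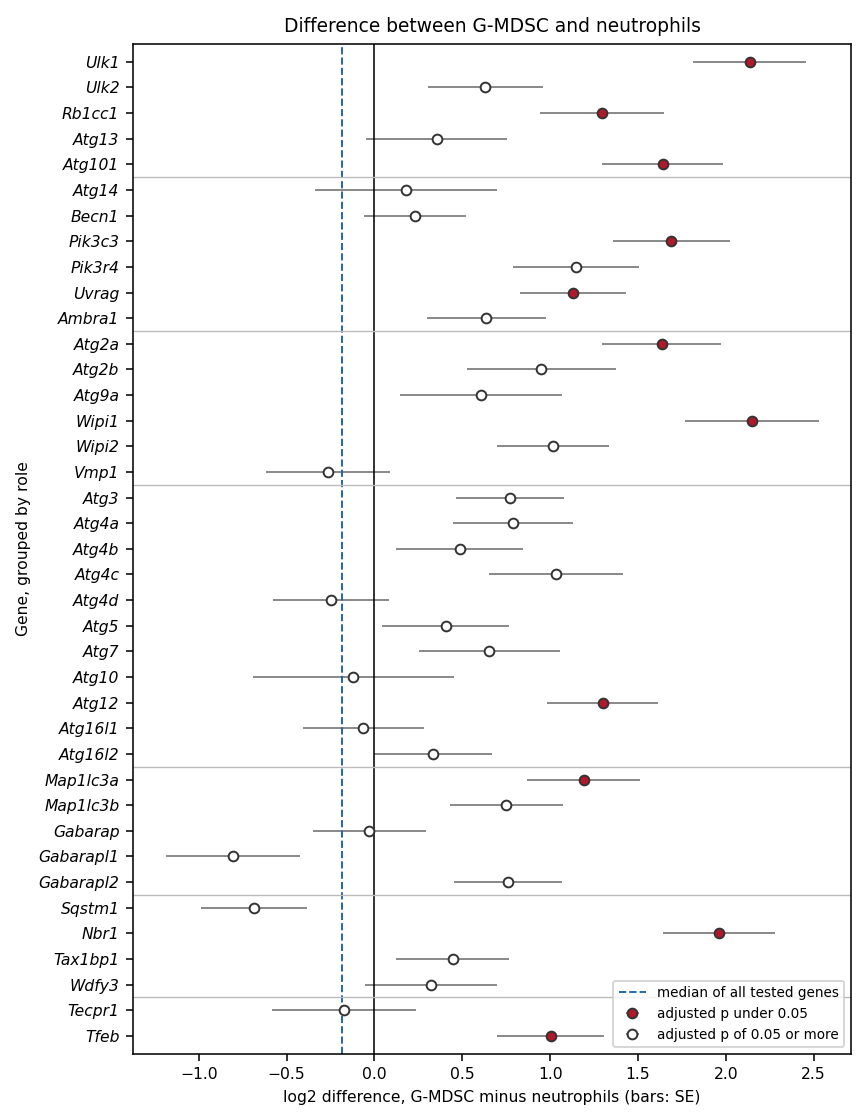
Log2 difference, G-MDSC minus neutrophils (horizontal), with its SE for each of the 39 members, in the order of roles from initiation at the top. Filled points passed the limma threshold, the dashed line marks the median of all tested genes at -0.18, and the filled points run from 1.0 (Tfeb) to 2.15 (Wipi1).

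In the nucleation complexes, which make phosphatidylinositol 3-phosphate, 2 of 6 members were higher and all 6 lay above 0. Pik3c3, the lipid kinase VPS34, had 897 and 1124 in G-MDSC, against 301 and 299 in the neutrophils (1.69 ± 0.33, SE, n = 2 per group; limma adjusted p = 0.00595). It was not called without G-MDSC replicate 2 (adjusted p = 0.125). Uvrag, a subunit of the endosomal form of the complex, had 2591 and 3204 in G-MDSC, against 1313 and 1307 in the neutrophils (1.13 ± 0.30; adjusted p = 0.0263), and was not called with quantile normalization (adjusted p = 0.066) or with either G-MDSC array dropped (adjusted p = 0.125 leaving out replicate 1 and 0.326 leaving out replicate 2). Both neutrophil arrays were nearly equal for Pik3c3 and for Uvrag. Pik3r4, the VPS15 partner of the kinase, fell just outside the threshold, with 644 and 658 in G-MDSC and 349 and 233 in the neutrophils (1.15 ± 0.36; adjusted p = 0.0504). It differed by 1.42 without neutrophils replicate 1 and by 0.87 without neutrophils replicate 2. Becn1, the Beclin 1 scaffold common to the complexes, was the brightest of the 6 and differed little, with 6717 and 7165 in G-MDSC and 6283 and 5550 in the neutrophils (0.23 ± 0.29; adjusted p = 0.631). Ambra1, a Beclin 1 activator, had 947 and 915 in G-MDSC and 731 and 480 in the neutrophils (0.64 ± 0.34). It differed by 0.93 without neutrophils replicate 1 and by 0.34 without neutrophils replicate 2. Atg14, which directs the complex to autophagy, overlapped, with 179 and 220 in G-MDSC and 104 and 284 in the neutrophils, and its difference of 0.18 ± 0.52 became -0.48 without neutrophils replicate 1. Whether the catalytic subunit Pik3c3 and the scaffold Becn1 differ from each other in their response was not tested.

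Among the genes that supply membrane, 2 of 6 were higher, Wipi1 and Atg2a. Wipi1, which binds the phosphoinositide that VPS34 makes, gave 2202 and 1173 in G-MDSC, against 415 and 296 in the neutrophils (2.15 ± 0.38, SE, n = 2 per group; limma adjusted p = 0.0034), and all 6 of its probe sets were higher, by 0.97 to 2.41. It was not called without G-MDSC replicate 1 (1.70, adjusted p = 0.0644). Its difference and that of Ulk1 lay within 1 SE of each other, and their order turned with the mean of probe sets (1.68 for Wipi1 and 2.09 for Ulk1) and without G-MDSC replicate 1 or neutrophils replicate 1. Atg2a, a lipid transfer protein, had 2734 and 2434 in G-MDSC, against 1052 and 639 in the neutrophils (1.63 ± 0.34; adjusted p = 0.00751), and lost its call without G-MDSC replicate 1 (adjusted p = 0.053). The paralogues Wipi2 and Atg2b did not pass the threshold but were separate in the same direction. Wipi2, the partner of ATG16L1, had 1032 and 1249 in G-MDSC and 561 and 545 in the neutrophils (1.02 ± 0.32; adjusted p = 0.0509). Atg2b had 333 and 352 in G-MDSC and 226 and 126 in the neutrophils (0.95 ± 0.42). It differed by 1.34 without neutrophils replicate 1 and by 0.56 without neutrophils replicate 2. Atg9a, the lipid scramblase carried by small vesicles, depended on the neutrophil array: it had 2707 and 2264 in G-MDSC and 2893 and 906 in the neutrophils. Its difference of 0.61 ± 0.46 became 1.43 without neutrophils replicate 1 and -0.22 without neutrophils replicate 2. Vmp1, a scramblase of the endoplasmic reticulum, was bright and overlapping, with 5175 and 9723 in G-MDSC and 7757 and 9354 in the neutrophils (-0.26 ± 0.35), and lay at 0.19 without G-MDSC replicate 1 and -0.72 without G-MDSC replicate 2. Its dimmer probe set differed by -1.36, and the mean of both by -0.81.

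Of the conjugation members, enzymes and the proteins they act with, 1 of 11 was higher and 0 lower, near the 8.3% higher of all tested genes, with a median of 0.49. Atg12, the ubiquitin-like protein joined to ATG5, had 1567 and 1968 in G-MDSC, against 756 and 655 in the neutrophils (1.30 ± 0.32, SE, n = 2 per group; limma adjusted p = 0.0166). The call was lost with the mean of its probe sets (0.87, adjusted p = 0.0889) and with either G-MDSC array dropped (adjusted p = 0.0859 leaving out replicate 1 and 0.248 leaving out replicate 2). Atg3, the E2-like enzyme that hands LC3 to lipid, was the brightest enzyme, with 14130 and 18631 in G-MDSC and 8781 and 10246 in the neutrophils. The groups were separate but the difference of 0.77 ± 0.31 missed the threshold (adjusted p = 0.117). This difference was 0.66 without neutrophils replicate 1 and 0.88 without neutrophils replicate 2. Of the ATG4 proteases that process LC3, Atg4c had 483 and 366 in G-MDSC and 186 and 209 in the neutrophils (1.03 ± 0.38; adjusted p = 0.0914). It differed by 0.96 without neutrophils replicate 1 and by 1.11 without neutrophils replicate 2. Atg4a, another of them, differed by 0.79 ± 0.34, Atg4b by 0.49 ± 0.36 and Atg4d by -0.25 ± 0.33. Of these 4 proteases Atg4a and Atg4c were separate and higher, Atg4d was separate and lower, and Atg4b overlapped.

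Atg7, the E1-like enzyme of both conjugation systems, had 1495 and 1279 in G-MDSC and 1338 and 568 in the neutrophils, with the 2 neutrophil arrays far apart. Its difference of 0.65 ± 0.40 became 1.26 without neutrophils replicate 1 and 0.047 without neutrophils replicate 2. Atg5, the acceptor of ATG12, had 885 and 1117 in G-MDSC and 562 and 991 in the neutrophils (0.41 ± 0.36). The platform protein Atg16l1 had 946 and 766 in G-MDSC and 1105 and 717 in the neutrophils (-0.06 ± 0.34), and its relative Atg16l2 had 631 and 547 in G-MDSC and 517 and 415 in the neutrophils (0.33 ± 0.34). Atg5 and Atg16l1 overlapped between the groups, whereas Atg16l2 was separate by a margin smaller than its SE. Atg10, the E2-like enzyme for ATG12, was the dimmest member, with 119 and 92.4 in G-MDSC and 113 and 118 in the neutrophils (-0.12 ± 0.57).

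Of the 5 LC3 and GABARAP proteins, which coat the membrane, 1 was higher and 0 lower, and their differences ran from -0.81 to 1.19. Map1lc3a had 7046 and 6650 in G-MDSC, against 3774 and 2368 in the neutrophils, and was the member called (1.19 ± 0.32, SE, n = 2 per group; limma adjusted p = 0.0276). Its probe set is of the _x_at type, in which some probes match other transcripts too, and its second probe set had 2351 and 2274 in G-MDSC, against 619 and 577 in the neutrophils (1.92). The call was lost with median scaling (adjusted p = 0.0611) and with either G-MDSC array dropped (adjusted p = 0.169 leaving out replicate 1 and 0.13 leaving out replicate 2). Map1lc3b, the LC3 form most used to follow autophagy, had 20646 and 29236 in G-MDSC and 16136 and 13222 in the neutrophils on its brightest probe set (0.75 ± 0.32; adjusted p = 0.144). Its 3 dimmer probe sets differed by 1.0 to 1.86, and the mean of its probe sets passed the threshold (1.24, adjusted p = 0.0339). Gabarapl2, known as GATE-16, had 3755 and 4888 in G-MDSC and 2300 and 2767 in the neutrophils (0.76 ± 0.31; adjusted p = 0.121). These 3 genes were separate and higher in G-MDSC.

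Gabarap, the brightest member, had 18727 and 24682 in G-MDSC and 19136 and 25185 in the neutrophils, so that its groups overlapped (-0.03 ± 0.32). Gabarapl1 had 389 and 501 in G-MDSC and 569 and 1078 in the neutrophils (-0.81 ± 0.38; limma adjusted p = 0.187). Its groups were separate, and its other probe set differed by -0.78. The difference was -1.26 without neutrophils replicate 1 and -0.35 without neutrophils replicate 2. Whether Map1lc3a and Gabarapl1 differ from each other in their response was not tested.

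Of the cargo receptors 4 of 6 could be measured, and Nbr1 alone was called. Nbr1, which binds ubiquitinated cargo and LC3, had 3033 and 3899 in G-MDSC, against 1009 and 751 in the neutrophils (1.96 ± 0.32, SE, n = 2 per group; limma adjusted p = 0.0021). It differed by 1.75 to 2.17 with any 1 array left out. Sqstm1, the p62 receptor of ubiquitinated cargo that also activates NRF2, lay on the opposite side, with 4536 and 5629 in G-MDSC and 7555 and 8771 in the neutrophils (-0.69 ± 0.30; adjusted p = 0.153). The groups of Sqstm1 were separate, and its difference was -0.79 without neutrophils replicate 1. Tax1bp1, a receptor of the same ubiquitin-binding kind, had 3386 and 5346 in G-MDSC and 3084 and 3162 in the neutrophils (0.44 ± 0.32), separate only by a small margin. Wdfy3, the ALFY adaptor for protein aggregates, had 2535 and 1863 in G-MDSC and 2470 and 1220 in the neutrophils (0.32 ± 0.38). It overlapped between the groups, with 0.83 without neutrophils replicate 1 and -0.18 without neutrophils replicate 2.

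The remaining members act late or on transcription. Tfeb, the transcription factor that drives lysosomal and autophagy genes, had 2067 and 2081 in G-MDSC, against 1130 and 934 in the neutrophils (1.0 ± 0.31, SE, n = 2 per group; limma adjusted p = 0.0453). It was the call nearest to the threshold, lost with quantile normalization (adjusted p = 0.0877), with median scaling (adjusted p = 0.0687) and with either G-MDSC array dropped (adjusted p = 0.326 leaving out replicate 1 and 0.323 leaving out replicate 2). When all kept probe sets were fitted by limma, the only probe set of Tfeb did not pass the threshold (adjusted p = 0.063). Tecpr1, a tether of autophagosomes and lysosomes, had 696 and 664 in G-MDSC and 1188 and 496 in the neutrophils (-0.17 ± 0.41). Its neutrophil arrays lay on either side of both G-MDSC arrays.

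**Figure D4:**
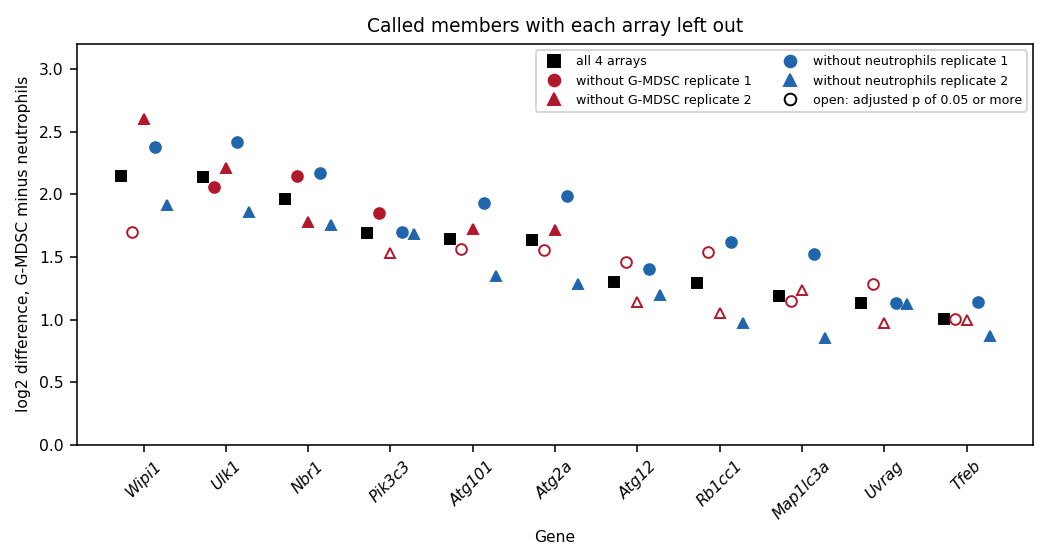
Log2 difference, G-MDSC minus neutrophils (vertical), of the 11 called members with all 4 arrays (black squares) and with each array left out (red, a G-MDSC array; blue, a neutrophil array; circles, replicate 1; triangles, replicate 2). Open symbols did not pass the limma threshold, which happens only where a G-MDSC array was left out, and all values lie above 0.

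Probe sets of 1 gene did not always lie on the same side. Of 40 further kept probe sets of members that were not called, 3 passed the threshold when all kept probe sets were fitted, 2 of Map1lc3b and 1 of Ulk2. In the same fit the probe set of Tfeb, a called member, did not pass. The share of all kept probe sets that passed was not computed, so no excess is read from these 3. Among genes, 8.3% were called higher and 8.05% lower. Of the 27 members with at least 2 kept probe sets, 17 had all on 1 side of 0 and 10 had them on both sides, among them Wipi2, Becn1, Atg4a and Tax1bp1. Of the 6 called members with several probe sets, 5 had all of them higher, and 10 of their 11 further probe sets lay above 0, the exception being the dimmest of Rb1cc1 at -0.41.

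Other genes of the pathway, 74 tested from 5 lists, moved in both directions. Of these 14 were higher (18.9%) and 5 lower (6.76%), with a median of 0.35. Among regulators through the nutrient kinases TORC1 and AMPK, 3 of 29 were higher (10.3%) and 0 lower, near the 8.3% higher of all tested genes, with a median of 0.27. At an unadjusted p under 0.05, 4 were higher (13.8%) and 2 lower (6.9%), beside 15.0% and 14.6% of all tested genes. Sesn1, a stress-induced sestrin, had 1276 and 1017 in G-MDSC, against 385 and 389 in the neutrophils (1.52 ± 0.33), and Prkab1, an AMPK subunit, had 2201 and 2123 in G-MDSC, against 942 and 596 in the neutrophils (1.51 ± 0.33). Neither was called without a G-MDSC array (adjusted p = 0.184 for Sesn1 and 0.0763 for Prkab1 leaving out replicate 1, and 0.0538 and 0.0575 leaving out replicate 2). Of the list on autophagosome fusion with the lysosome, 2 of 13 were higher (15.4%) and 0 lower, beside 8.3% higher and 8.05% lower of all tested genes. These were the SNARE Stx17, with 959 and 1158 in G-MDSC, against 413 and 403 in the neutrophils (1.34 ± 0.33), and the tethering subunit Vps18, with 1359 and 1175 in G-MDSC, against 504 and 534 in the neutrophils (1.26 ± 0.32). Neither was called once a G-MDSC array was dropped (adjusted p from 0.125 to 0.279).

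Partners of the core proteins moved in both directions, with 3 of 12 higher and 2 lower. Counts in this paragraph stand beside 8.3% higher and 8.05% lower of all tested genes. Trp53inp1 and Trp53inp2, p53-induced and nuclear proteins that bind LC3 family members, rose most. Trp53inp1 had 18744 and 17213 in G-MDSC, against 3991 and 1346 in the neutrophils (2.94 ± 0.44; limma adjusted p = 0.00131), and Trp53inp2 had 3700 and 1809 in G-MDSC, against 837 and 321 in the neutrophils (2.28 ± 0.47). Dapk1, a kinase that phosphorylates Beclin 1, fell, with 129 and 69.2 in G-MDSC, against 648 and 963 in the neutrophils (-2.86 ± 0.42), as did the scramblase Tmem41b (-1.19 ± 0.33), which was not called once either G-MDSC array was dropped (adjusted p = 0.201 and 0.245). Of 13 further receptors of selective autophagy, 4 were higher (30.8%) and 1 lower. Ccpg1, a receptor for the endoplasmic reticulum, had 10245 and 12960 in G-MDSC, against 2380 and 1963 in the neutrophils (2.41 ± 0.30; adjusted p = 0.000499). Pink1, the kinase that marks damaged mitochondria, had 3267 and 4031 in G-MDSC, against 1344 and 1039 in the neutrophils (1.61 ± 0.31), and was not called without G-MDSC replicate 2 (adjusted p = 0.0631). Nufip1, a receptor for ribosomes, was lower, with 195 and 170 in G-MDSC, against 537 and 589 in the neutrophils (-1.55 ± 0.36) and was not called once either G-MDSC array was dropped (adjusted p = 0.117 and 0.171).

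Of 7 MiT and FOXO transcription factors, 2 were higher (28.6%) and 2 lower, beside 8.3% and 8.05% of all tested genes. The 2 lower ones are relatives of TFEB. Mitf had 457 and 503 in G-MDSC, against 1739 and 1475 in the neutrophils (-1.71 ± 0.32; limma adjusted p = 0.00431), and Tfec, a family member known from macrophages, had 184 and 17.8 in G-MDSC, against 1309 and 1538 in the neutrophils (-4.12 ± 0.65). Tfe3 had 1316 and 1407 in G-MDSC and 3136 and 1517 in the neutrophils (-0.68 ± 0.37) and was not called. The FOXO factors Foxo3 and Foxo4, which also act on autophagy genes, were higher, by 1.28 ± 0.38 and 1.86 ± 0.56. Foxo3 was at 2932 and 2486 in G-MDSC, against 1621 and 743 in the neutrophils. Foxo4 was at 485 and 471 in G-MDSC, against 248 and 54.0 in the neutrophils. The value of 54.0, on neutrophils replicate 2, lay below the 40th percentile of that array (133). Foxo3 lost its call without G-MDSC replicate 1 (adjusted p = 0.195), G-MDSC replicate 2 (0.082) and neutrophils replicate 2 (0.73, adjusted p = 0.0813), and Foxo4 likewise (adjusted p = 0.202, 0.168 and, at 0.90, 0.0534). Over the 5 lists, the 14 higher and 5 lower genes became 1 and 1 with no intensity trend, beside 1.13% higher and 2.52% lower of all genes. Leaving out 1 array also changed these counts, as it did those of all genes.

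Markers of other cells moved with the groups, and their part in the members' differences was not tested. In bulk RNA, fewer cells of a type and less RNA per cell cannot be told apart. Marker counts stand beside 8.3% higher and 8.05% lower of all tested genes. Of 13 macrophage markers, 10 were lower in G-MDSC and 0 higher, and their summed signal was 17054 and 17098 in G-MDSC, against 44530 and 65202 in the neutrophils. Adgre1, the F4/80 antigen, had 817 and 643 in G-MDSC, against 4847 and 7136 in the neutrophils. Of 8 mast cell markers, 5 were lower and 0 higher (summed signal 18086 and 21705 in G-MDSC, against 40480 and 30340 in the neutrophils). Most of that sum came from Hdc, histidine decarboxylase, which was not called (-0.54 ± 0.30) and is named here after its values were seen. The mast cell proteases differed far more. Cma1 had 17.7 and 9.44 in G-MDSC, against 4591 and 1551 in the neutrophils (-6.52 ± 0.51), and Mcpt4 and Tpsb2 differed by -5.57 and -4.91, with all 3 below the 40th percentile of both G-MDSC arrays. Kit, also named after its values were seen, lay on the other side but was not called (1.62 ± 0.51; limma adjusted p = 0.0531). It had 2003 and 3146 in G-MDSC and 1551 and 417 in the neutrophils. Of 7 B and plasma cell markers, 2 were higher and 1 lower (summed signal 20941 and 14793 in G-MDSC, against 6069 and 8700 in the neutrophils). Of 6 T and NK cell markers, 1 was lower (710 and 382 in G-MDSC, against 912 and 983 in the neutrophils). Of 11 neutrophil markers, 4 were higher, Ltf, Camp, Ngp and Cxcr2, and 0 lower (312848 and 371958 in G-MDSC, against 227534 and 271684 in the neutrophils).

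Maturing red cells clear their organelles by autophagy, and erythroid markers were listed for that reason. Of 14 listed, 7 were tested, and 0 of these were called by limma in either direction, also at an unadjusted p under 0.05. Their summed signal was 2227 and 2235 in G-MDSC, against 2012 and 2806 in the neutrophils. Most of that sum came from Tfrc, the transferrin receptor, with 1667 and 1481 in G-MDSC and 1651 and 1924 in the neutrophils. The other markers were far dimmer, among them Hba-a1, with 66.1 and 56.2 in G-MDSC and 38.0 and 67.4 in the neutrophils. The erythroid factor Gata1 had 99 and 135 in G-MDSC and 136 and 112 in the neutrophils, with overlapping groups. The median difference of the 7 was 0.51 without neutrophils replicate 2 and -0.23 without neutrophils replicate 1. No marker of any list was at a signal of 0 on an array.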

How the data were processed

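Gene expression was measured on 4 Affymetrix arrays, 2 of G-MDSC and 2 of neutrophils, from 100 ng of total RNA each. The deposited values are MAS5 signal intensities on a linear scale, which the authors made, per the submitters' processing notes, using MAS5 in GCOS 1.4. Once the outer 2% of probe sets on either side are left out, each array has a mean of 500. Detection calls were not used here, and arrays have no read depth, so their number limits the precision. Of 45101 probe sets, 34945 had 1 gene symbol in the platform annotation, 932 had several and were not named, and 34754 matched the RefSeq table of GRCm38.p6 by gene ID.

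Values were taken as log2(signal + 16). Probe sets above the 40th percentile of their array in at least 2 arrays were kept, and the brightest of them by mean stood for each of 13139 genes. Differences were fitted with limma 3.58.1 (R 4.3.3; lmFit, eBayes with an intensity trend), two-sided, with Benjamini-Hochberg adjustment over all tested genes. Tables and plots used Python 3.11.15, pandas 2.3.3, numpy 2.4.6 and matplotlib 3.10.9. With 2 arrays a group, exact permutation cannot reach a p under 0.33, so it was not used.

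All 41 members were to be named, and of each pathway list up to 2 called genes per direction by size, with up to 3 markers per cell type list. Tfe3, Hdc, Kit, Tfrc, Hba-a1 and the 4 neutrophil markers that were higher were named after their values were seen. The members and lists were chosen with earlier results of these data known. Pathway lists held 82 entries, 2 of them older symbols of genes listed too. The promoter motifs were chosen for description, with the values known. Alternatives were pseudocounts of 1 and 64, no filter or one at the 60th percentile, quantile and median scaling, no intensity trend, the mean of a gene's probe sets, a floor for low signals, a replicate block, and dropping each array in turn. Same-numbered arrays deviated together from their group means with a correlation of 0.24 across genes, but the labels do not say that a number marks a shared mouse, batch or day.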

Additional observations from a re-analysis of the deposited data

How the results depend on the processing

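The count of 11 members higher and 0 lower ran from 10 to 13 higher, with 0 lower, under other pseudocounts, filters, scalings, the mean of probe sets and the floor. Of all genes 5.08% were higher and 4.61% lower with no filter, and 12.1% and 11.5% with the 60th percentile filter, with the other settings between. That filter gave 13 members higher, with the median of all genes at 0.05 and the members 0.65 above it. With no intensity trend the members' count was 1, and the counts over all genes were 148 higher and 331 lower. With an array left out, members ran from 3 to 20 higher and from 0 to 2 lower, and all genes from 429 to 2419 higher and from 561 to 3472 lower. The replicate block gave 16 members higher and 0 lower, beside 1699 (12.9%) higher and 1607 (12.2%) lower over all genes. The numbers are not known to pair the arrays, and the cause of these shifts was not tested. The members' median of 0.65 was 0.89 with median scaling, which moved the median of all genes from -0.18 to 0.05, so that it lay 0.84 above all genes in both cases, and quantile normalization moved it to 0.04, with the members 0.55 above it. Of 545 member values recomputed under 14 alternatives, 463 kept their direction and side of the threshold, 31 lost a call, 31 gained one and 20 changed sign, in 11 members, of which 0 were called. Atg10 was at 0.48 with quantile normalization and 0.12 with median scaling, and ran from -0.28 to 0.037 over the fits with an array left out. Gabarap was at 0.17 with quantile normalization and 0.21 with median scaling, and ran from -0.23 to 0.17 with an array left out. Atg16l1 was at 0.17 with median scaling and ran from -0.37 to 0.24 with an array left out. Tecpr1 was at 0.062 with median scaling and ran from -0.79 to 0.44. With the mean of probe sets Atg16l2 was at -0.15, Atg4a at -0.092 and Wdfy3 at -0.19. With an array left out Atg13 ran from -0.087 to 0.79, Atg14 from -0.48 to 0.84, Atg9a from -0.22 to 1.43, Wdfy3 from -0.18 to 0.83 and Vmp1 from -0.72 to 0.19. Atg2b and Atg10 lay below the 40th percentile on 1 array. Atg2b ran from 0.56 to 1.34 with an array left out and was at 0.59 with the mean of probe sets.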
